A study of Homo sapiens with 6 samples.

Results

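The Hedgehog ligand genes SHH, IHH and DHH, the receptor genes PTCH1 and SMO, the ligand antagonist gene HHIP and the transcription factor genes GLI1, GLI2 and GLI3 were examined in NCI-H661, a cell line of lung large cell carcinoma. These 9 genes were taken by name from 20015 protein-coding genes of GENCODE v44 on hg38, and not by a rule on their reads. Earlier results of these data were known when the list was made. For each gene, every peak that overlapped 1500 bp on either side of any annotated transcript start was read in each library. The libraries were 6 sequential ChIP (reChIP) libraries of untreated parental cells, in which chromatin from a first immunoprecipitation is precipitated again with a second antibody. K4–K119 denotes H3K4me3 first and H2AK119ub second, K119–K4 the opposite order, and IgG–IgG a control with immunoglobulin in both rounds, each in 2 biological replicates. All libraries come from 1 cell line with no allele or agent added, and by their titles the groups differ in the antibodies. Whether they also differ in preparation or sequencing was not tested.

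Hedgehog proteins are secreted ligands that bind PTCH1, a membrane protein that otherwise holds SMO inactive. Active SMO, which works at the primary cilium, prevents the processing of GLI proteins into repressors, and PTCH1, HHIP and GLI1 are themselves transcribed in response to the signal. In the developing lung, SHH is made by the epithelium and received by the surrounding mesenchyme. H3K4me3 marks the starts of active and poised genes, H2AK119ub is deposited by Polycomb repressive complex 1, and promoters carrying active and repressive modifications at once are termed bivalent. A reChIP read is meant to come from chromatin that both antibodies retained in turn, though the IgG–IgG libraries gave reads too. No library here paired a specific antibody with IgG, so chromatin kept by a single antibody was not measured.

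The 250 bases before the canonical starts of SHH and SMO are shown first, with every CG dinucleotide in capitals, because peaks lay over the SMO start in all 4 reChIP libraries and over the SHH start in 1 of them. The letters are those of RefSeq on hg38, written 5′ to 3′ along the gene, and no exon of the same gene overlaps them in GENCODE v44.
SHH, chr7:155812464-155812713, minus strand, upstream of SHH-201: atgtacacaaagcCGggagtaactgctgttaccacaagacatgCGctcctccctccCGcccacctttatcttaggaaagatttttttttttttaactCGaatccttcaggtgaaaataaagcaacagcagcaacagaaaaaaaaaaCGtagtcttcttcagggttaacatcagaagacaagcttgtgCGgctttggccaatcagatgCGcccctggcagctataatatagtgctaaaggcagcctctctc
SMO, chr7:129188383-129188632, plus strand, upstream of SMO-201: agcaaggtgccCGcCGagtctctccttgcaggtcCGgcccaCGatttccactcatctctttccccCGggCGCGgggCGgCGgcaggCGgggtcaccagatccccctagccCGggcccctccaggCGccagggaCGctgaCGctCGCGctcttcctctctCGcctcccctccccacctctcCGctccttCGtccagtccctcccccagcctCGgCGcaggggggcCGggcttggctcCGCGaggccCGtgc
SHH held 7 CG dinucleotides in this stretch and SMO held 25. The same stretch held 34 at HHIP, 29 at IHH, 26 at GLI2, 13 at PTCH1 and 11 at DHH. None of these 5 genes had a peak over that start in all 4 reChIP libraries. The 250 bases before the canonical start of PTCH1 follow, with a 9-base match to the GLI binding consensus in capitals.
PTCH1, chr9:95509267-95509516, minus strand, upstream of PTCH1-201: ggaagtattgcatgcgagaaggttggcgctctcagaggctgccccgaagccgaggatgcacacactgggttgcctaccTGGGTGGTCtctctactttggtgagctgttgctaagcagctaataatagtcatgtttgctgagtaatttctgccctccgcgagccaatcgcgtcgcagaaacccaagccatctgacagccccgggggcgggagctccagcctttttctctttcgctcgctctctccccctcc
The match, TGGGTGGTC or its reverse complement GACCACCCA, was searched on both strands, and it begins 172 bp before the start, at 95509430 to 95509438. Of 35116 RefSeq promoters of 300 bases, from 250 before to 50 after a start, 83 held it, or 0.236%. The table had 12 promoters of 7 of the 9 genes (all but GLI1 and GLI3), and this was 1 of 12 with the match. A match of letters does not show that a GLI protein binds there.

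Of the 9 genes, 3 had a region that both orders of antibodies recovered. These reciprocal regions, in which the reproducible peaks of K4–K119 and of K119–K4 overlapped by more than 25% of both, lay at PTCH1, SMO and GLI3. Of all protein-coding genes, 4180 had such a region, or 20.9%. Reproducible K4–K119 peaks lay at 5 of the 9 promoters (IHH, PTCH1, SMO, GLI1 and GLI3), against 33% of all genes. Reproducible K119–K4 peaks lay at 3 of the 9 (PTCH1, SMO and GLI3), against 30% of all genes. A peak was counted as reproducible if it overlapped a peak of the other replicate by more than 25% of both, each with the authors' log2 fold over input above 1 and FDR below 0.05. With 9 genes these shares rest on few promoters, and no test of the list was made. A listed peak of at least 10 reads in each of the 4 reChIP libraries was found at 4 of the 9 genes, the 3 above and GLI1, against 28.8% of all genes. No member had a reproducible IgG–IgG peak, as was the case for all but 8 of the 20015 genes, 0.04% called.

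Among the receptors, PTCH1 held the most reads of the 9 genes, summed over the 4 reChIP libraries. The listed peaks at its promoters had 607 and 348 reads with H3K4me3 first (K4–K119 replicates 1 and 2) and 744 and 284 with H2AK119ub first (K119–K4 replicates 1 and 2), and none with IgG. No IgG–IgG peak was listed, so no control value stands beside the reChIP reads, and the orders are compared below after scaling. Reads outside peaks are not in the lists, and a library without a peak may still have had some there.

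PTCH1 (ENSG00000185920.19, chromosome 9, 95442980 to 95517057, minus strand) has 29 annotated transcripts with 23 starts, and the reads fell into 2 separate domains. The first covered the canonical start and ran 5000 bp from 95505101 to 95510100, with 10 PTCH1 starts and exons 1 and 2 of the canonical transcript inside. The start of ENSG00000271155, a long noncoding RNA, also lies under it. Its peak held 387, 269, 512 and 227 reads in K4–K119 replicates 1 and 2 and K119–K4 replicates 1 and 2, over 14, 16, 14 and 12 input reads. The second domain ran 2500 bp from 95515101 to 95517600, upstream of the first, and covered 3 starts, the outermost of the gene among them. Its peak held 209, 79, 224 and 54 reads over 5, 6, 4 and 3 input reads. Each domain was reciprocal. In K119–K4 replicate 2 the first peak began 66 bp downstream of the canonical start, at 95509200, and left out that start and the GLI consensus match shown above. The peaks of the other 3 reChIP libraries covered that start and the match. The second peak of K119–K4 replicate 2, from 95515701 to 95516900, covered 1 of the 3 upstream starts, at 95516658, and left out the outer ones at 95516971 and 95517057.

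SMO (ENSG00000128602.11, chromosome 7, 129188633 to 129213545, plus strand) encodes the membrane protein that passes the signal on. A single domain of 3000 bp from 129187801 to 129190800 covered its exon 1 and 2 of its 5 starts. Its listed peaks had 343 and 203 reads with H3K4me3 first and 360 and 190 with H2AK119ub first. IgG–IgG replicate 2 had 1 peak of 2 reads inside the domain, at 129189301 to 129189400, and IgG–IgG replicate 1 had none. In listed peaks the lowest reChIP library thus held 190 reads and the highest control 2, the latter within 100 bp. Control reads elsewhere in the domain are not in the lists, so the 2 numbers do not give a ratio of signal. The largest peak had 18.5 and 18.8 reads per input read in the second replicates of K4–K119 and K119–K4, where the medians over genes with a promoter peak of at least 10 reads were 9.86 and 11.0. Removing every reChIP peak that overlaps any IgG–IgG peak removed the region of SMO, because of that peak of 2 reads. An IgG–IgG peak in either library was listed at 3831 of 20015 promoters (19.1%) and at 2 of the 9 members, SMO and GLI3.

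HHIP (ENSG00000164161.10, chromosome 4, 144646156 to 144745271, plus strand), whose product binds and sequesters the ligands at the cell surface, had few reads. Its listed peaks had 48 and 2 reads with H3K4me3 first and 13 and 2 with H2AK119ub first. The 2 reads of each second replicate lay at internal starts, at 144735301 to 144735600 and 144708201 to 144708500, not at the first one. The replicates of each order thus had no peak in common. The antisense noncoding gene HHIP-AS1 has a start under the peaks of both first replicates, and reads at the 2 genes cannot be told apart.

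**Figure D1:**
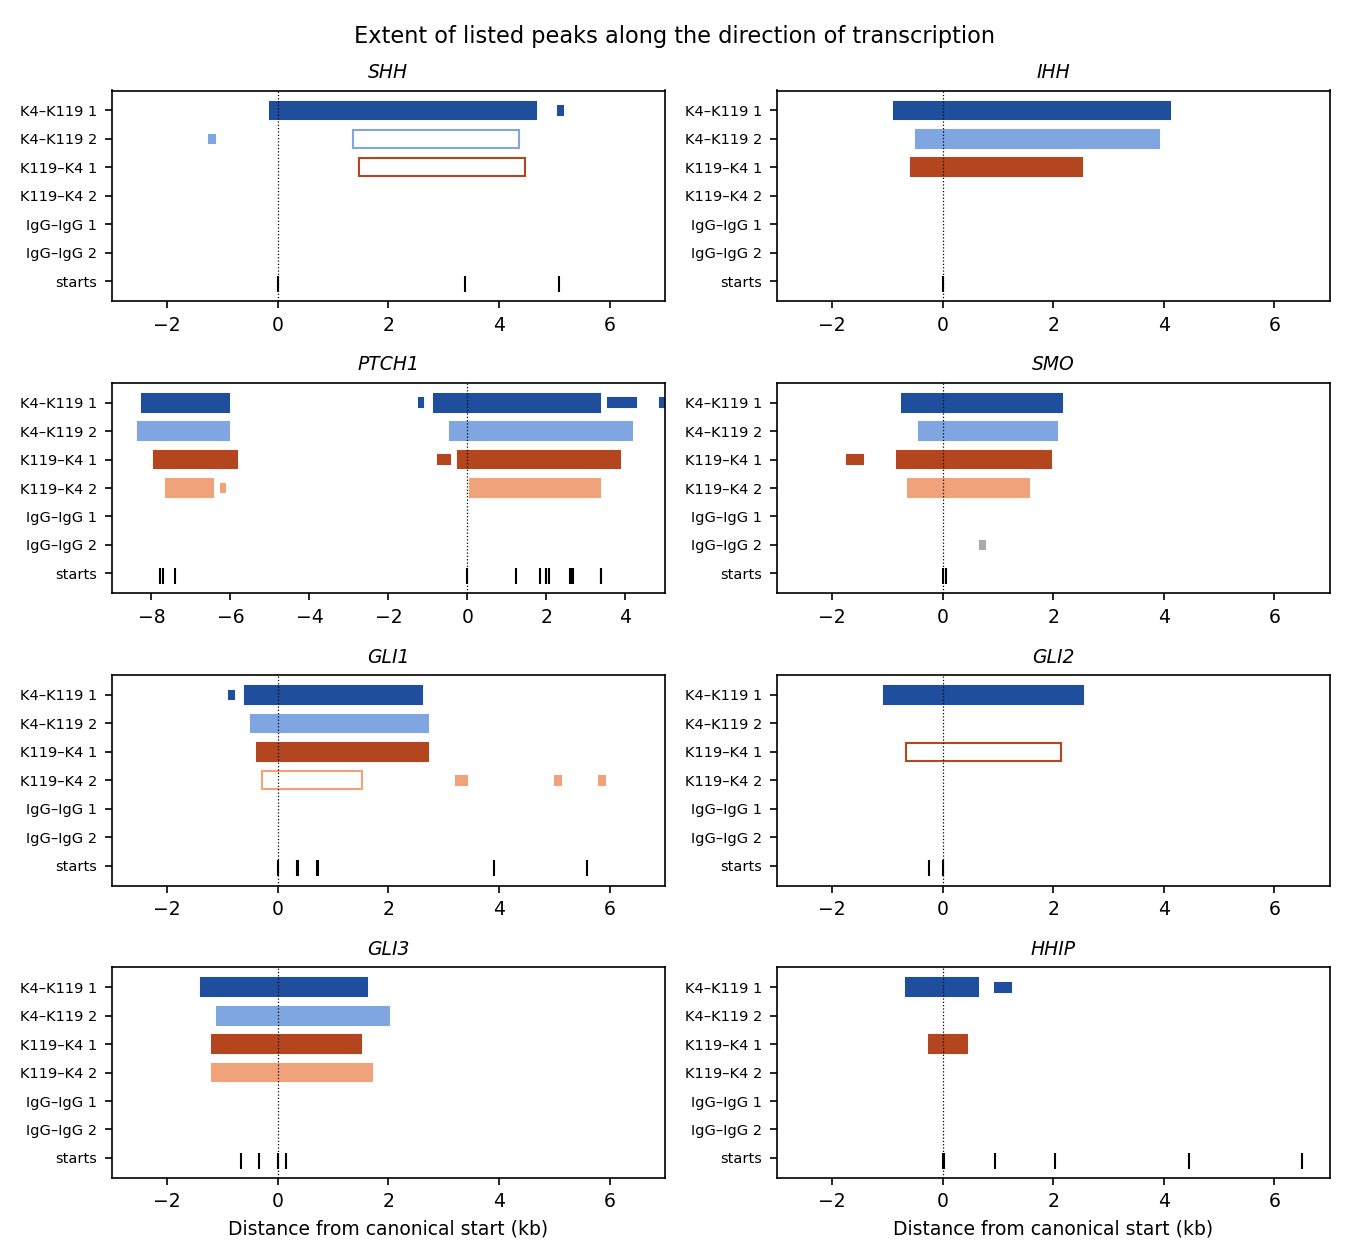
Listed promoter peaks of 8 genes by library, with distance from the canonical start in kb on the horizontal axis, positive in the direction of transcription. Filled bars are peaks with a log2 fold above 1, open bars peaks at or below it, low bars peaks of under 10 reads and black ticks annotated starts. PTCH1 has 2 domains, and the SHH peaks of at least 10 reads in K4–K119 replicate 2 and K119–K4 replicate 1 begin downstream of the canonical start.

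The ligand genes had no reciprocal region. IHH (ENSG00000163501.7, chromosome 2, 219054424 to 219060921, minus strand), a ligand of cartilage and gut, had a peak in 3 of the 4 reChIP libraries. It had 585 and 183 reads with H3K4me3 first and 157 in K119–K4 replicate 1, and none was listed in K119–K4 replicate 2 or in IgG–IgG. The reproducible K4–K119 peak covered 5000 bp from 219056801 to 219061800 with exons 1 and 2, and it also holds the start of MIR3131, a microRNA gene. The log2 folds in K4–K119 replicate 2 and K119–K4 replicate 1 were 1.01 and 1.05, just past the minimum of 1. With K119–K4 replicate 2 left out, IHH and GLI1 each had a reciprocal region, which raised the count from 3 to 5 of 9 and that of all genes to 27.0%.

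SHH (ENSG00000164690.8, chromosome 7, 155799980 to 155812463, minus strand), a ligand of the embryonic lung, limb and neural tube, had 417 and 136 reads with H3K4me3 first, 129 in K119–K4 replicate 1 and no listed peak in K119–K4 replicate 2. The canonical start lay outside the main peak in 2 of these 3 libraries. The peak of 415 reads in K4–K119 replicate 1 ran from 155807801 to 155812600 and covered that start. The peaks of K4–K119 replicate 2 (134 reads, 155808101 to 155811100) and K119–K4 replicate 1 (129 reads, 155808001 to 155811000) began 1363 and 1463 bp downstream of it and lay within intron 1. They cover the start of SHH-204, a transcript annotated as subject to nonsense-mediated decay, 3391 bp downstream of the canonical start. The window of 1500 bp on either side held 202 CG dinucleotides around the SHH-204 start and 100 around the canonical start, whose sequence is shown above. The log2 folds of these peaks were 0.92 and 0.60, below the minimum, so SHH had no reproducible peak of either order.

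DHH (ENSG00000139549.4, chromosome 12, 49086656 to 49094801, minus strand), a ligand of testis and peripheral nerve, had 1 listed promoter peak, of 2 reads in K119–K4 replicate 1. This is as many reads as the IgG–IgG peaks at SMO and GLI3 held. Its promoter had the fewest CG dinucleotides of the 9 genes, 72 in 3 kb around the canonical start, against a median of 115 over all genes and 171 over genes with a reciprocal region.

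The GLI genes, which encode the zinc finger factors at the end of the pathway, differed from each other. GLI3 (ENSG00000106571.15, chromosome 7, 41960949 to 42264100, minus strand), the main source of the GLI repressor, had a reciprocal region of 3400 bp from 42235201 to 42238600 with exon 1 and 4 of its 10 starts. Its listed peaks had 377 and 182 reads with H3K4me3 first and 302 and 167 with H2AK119ub first. In K4–K119 replicate 1, 13 of these reads lay in a separate peak near internal starts, at 42151801 to 42152400. IgG–IgG replicate 1 had a peak of 2 reads at 42228701 to 42228800, outside the region. With a minimum log2 fold of 2 the region was lost, since the folds of the second replicates were 1.72 and 1.83. Under that rule 6.27% of all genes kept a region, among them PTCH1 and SMO.

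GLI1 (ENSG00000111087.10, chromosome 12, 57459785 to 57472268, plus strand), an activator and itself a target of the pathway, had 240 and 136 reads with H3K4me3 first and 151 and 63 with H2AK119ub first. The largest peak of each library covered exon 1 and 5 of its 7 starts. In K119–K4 replicate 2 that peak held 55 reads over 8 input reads, with a log2 fold of 0.93, just below the minimum. The promoter therefore had a reproducible K4–K119 peak, from 57459201 to 57462500, and no reproducible K119–K4 peak. Without a filter on the fold, GLI1 had a reciprocal region, as did 30.2% of all genes.

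GLI2 (ENSG00000074047.22, chromosome 2, 120735623 to 120992653, plus strand), the main activator of the pathway, had a peak in the first replicate of each order only. K4–K119 replicate 1 held 284 reads over 27 input reads and K119–K4 replicate 1 held 134 reads over 22 input reads in the peak at the canonical start. The log2 fold of the latter was 0.36. The second replicates had no listed peak at any start of GLI2, nor did IgG–IgG. The promoter has 212 CG dinucleotides in 3 kb, more than IHH with 203 and SMO with 158. Of genes within 20% of its count, 50.0% had a reciprocal region. The same share was 52.2% at PTCH1 (223), 57.9% at GLI3 (258), 31.9% at SMO and 46.8% at IHH. It was 34.8% at HHIP (165), 10.6% at SHH (100), 9.90% at GLI1 (96) and 4.90% at DHH.

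By construction, the calls rest on reads per input read. In each library a log2 fold above 1 asks for a fixed number of reads per input read, 0.657 and 7.90 in the K4–K119 replicates and 9.48 and 7.24 in the K119–K4 replicates. Input counts were equal in 1378 of 1378 pairs of peaks with the same extent in different libraries, so this bar differs through the scale of the input and not through its reads. The bar of K4–K119 replicate 1 was far the lowest, and every member peak of at least 10 reads passed it there. In the other 3 libraries PTCH1, SMO and GLI3 lay between 12.8 and 36.6 reads per input read, and SHH, IHH, GLI1 and GLI2 between 6.09 and 10.1. The calls that set these genes apart rest on this same ratio, so the gap between the ranges is no separate result. HHIP, which had no region, had 13 reads over 1 input read in K119–K4 replicate 1, inside the range of PTCH1, SMO and GLI3. Raising the bar in K4–K119 replicate 1 to the input scale of its partner, an alternative added after the data were seen, left 3 of the 9 members with a region.

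An absent peak has to be read against the same bar. The regions of IHH, SHH and GLI2 had 16, 18 and 22 input reads over the narrowest listed peak of at least 10 reads in another library, for which K119–K4 replicate 2 would be expected to have 57.9, 65.2 and 79.7 reads from input alone. The lowest log2 fold listed in that library was 0.28. A lack of a peak there thus allows about as many reads as these numbers, and it does not show that no chromatin was recovered. The same holds for IgG–IgG replicates 1 and 2, where 0.797 and 1.01 reads per input read would be expected from input alone. Input reads per kb of the largest peak were highest at GLI2, with 7.50 and 7.86 in the first replicates, at the 85.5th and 93.4th percentiles of genes with a promoter peak of at least 10 reads. At PTCH1 they were 3.33 and 3.41, at the 21.2nd and 36.3rd percentiles. The part of this difference in the calls was not tested.

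**Figure D2:**
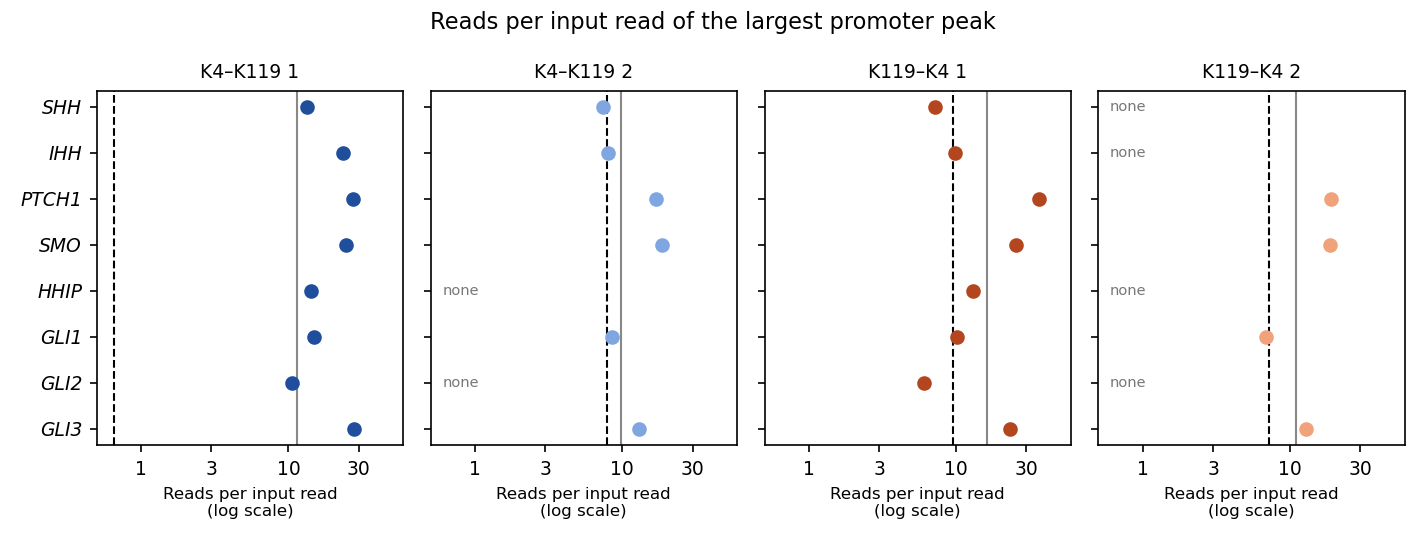
Reads per input read (horizontal axes, log scale) of the largest promoter peak of at least 10 reads, for 8 genes in the 4 reChIP libraries. The dashed line is the value that a log2 fold of 1 asks for and the gray line the median over all genes with such a peak, and "none" marks a gene without one. PTCH1, SMO and GLI3 lie to the right of both lines in each library.

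The widths of the peaks placed most members among the broad promoters. In K4–K119 replicate 1 the largest peak was 5000 bp wide at IHH, 4800 bp at SHH and 4200 bp at PTCH1, at the 98.8th, 98.7th and 97.6th percentiles of 14137 genes, whose median was 1600 bp. In K119–K4 replicate 2, PTCH1 with 3300 bp, GLI3 with 2900 bp and SMO with 2200 bp stood at the 98.2nd, 96.6th and 89.0th percentiles of 6560 genes. Among members with a peak of at least 10 reads HHIP was the exception, with 1300 bp in K4–K119 replicate 1, at the 33.2nd percentile. DHH had no such peak, and its only listed promoter peak was 300 bp wide. In reads per kb, GLI3, SMO and IHH had 120.0, 118 and 117 in K4–K119 replicate 1, values within 3 reads per kb of each other, followed by 92.1 at PTCH1 and 86.5 at SHH. In K119–K4 replicate 1 the order was SMO with 127, PTCH1 with 125 and GLI3 with 112 reads per kb, while IHH had 50.6, GLI1 48.7, GLI2 47.9 and SHH 43.0. The first 3 and the last 4 lay close together within each set.

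The order of the antibodies was compared at 8510 promoters with a listed peak in each reChIP library, by edgeR's quasi-likelihood test with Benjamini-Hochberg adjustment over all of them. None was called (0% called), with 1086 promoters at an unadjusted p below 0.05, while DESeq2 called 493. Of the 9 genes, 5 entered the test. In CPM, the reads scaled to all promoter reads of a library, PTCH1 stood at 400 and 494 with H3K4me3 first against 614 and 557 with H2AK119ub first, and SMO at 226 and 288 against 297 and 373. After this scaling the orders did not overlap at either gene, and PTCH1 had its nearest values at 494 and 557 and SMO at 288 and 297. Without the TMM factors the orders overlapped at SMO. Lack of overlap says little with 2 libraries against 2, where the smallest two-sided exact permutation p is 0.333. The share of all promoters without overlap was not counted. The log2 differences of PTCH1 and SMO, K4–K119 minus K119–K4, were -0.39 ± 0.21 (SE) and -0.38 ± 0.23, with edgeR adjusted p of 0.493 and 0.530. Without K4–K119 replicate 1 they were -0.20 and -0.17. GLI1 had 158 and 193 against 125 and 124 CPM, again without overlap, and a log2 difference of 0.50 ± 0.21 (edgeR adjusted p = 0.423). GLI3 had 248 and 259 against 249 and 327 CPM, and its orders overlapped, with -0.18 ± 0.21 (edgeR adjusted p = 0.732). HHIP rested on 2 reads in each second replicate, with 1.20 ± 1.28 (edgeR adjusted p = 0.706). None of these 5 passed the threshold under any alternative, DESeq2 included, with adjusted p from 0.209 to 0.979. With absent peaks counted as 0, SHH, IHH and GLI2 entered the edgeR test too, with adjusted p of 0.864, 0.814 and 1.00. With 2 libraries a group, edgeR called a 2-fold difference at 7 of 50 simulated promoters and a 4-fold one at 34 of 50, so differences of the size seen here would mostly be missed.

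The difference between the orders moved with the level over all genes, which bears on these values. Genes within 0.5 of the mean log2 level of PTCH1 had a median log2 difference of -0.45, and those around SMO of -0.41, so both members stood near the middle of their neighbors, above 54.0% and 53.7% of them. GLI1 stood above 92.0% of the 2200 genes around its level, whose median was -0.19.

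**Figure D3:**
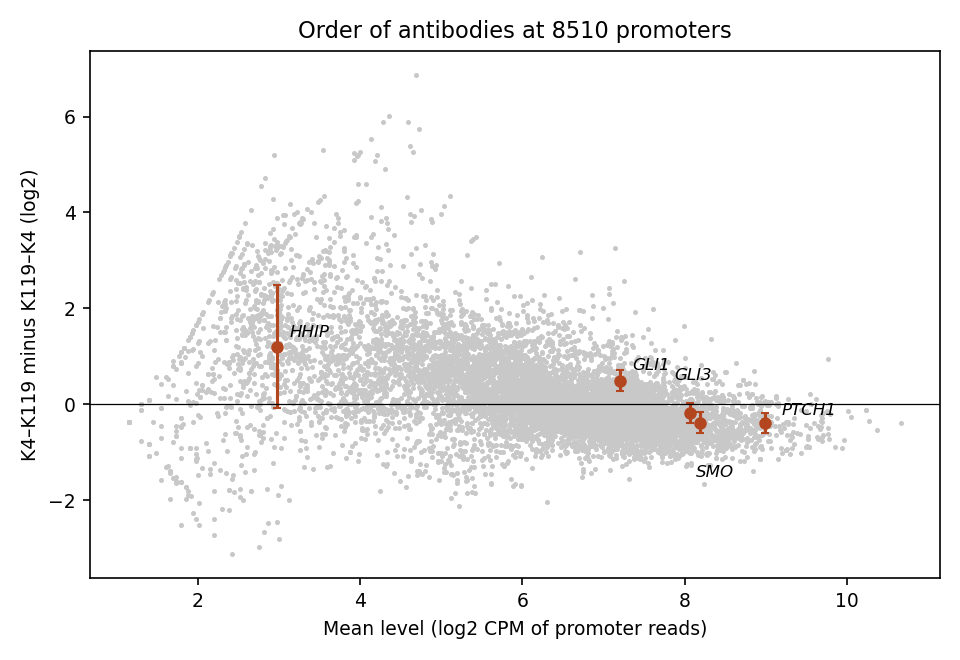
Log2 difference in promoter reads between K4–K119 and K119–K4 (vertical axis) against the mean level in log2 CPM of promoter reads (horizontal axis) for 8510 genes in gray, with the 5 members in the test in red and their standard errors. PTCH1, SMO and GLI3 lie at high levels below 0, GLI1 lies at 0.50 and HHIP at a low level with a wide error.

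By their levels in the 4 reChIP libraries, the genes most like PTCH1 were RGS20, SOGA1 and PPDPF, at distances of 0.15, 0.15 and 0.19 on the log2 scale over 4 libraries. Those most like SMO were LRCH1, CFL1 and LASP1, at 0.10, 0.17 and 0.17. RGS20 had 572, 340, 741 and 308 reads, and LRCH1 had 329, 204, 364 and 201 reads, in the order of libraries given above.

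The other genes of the pathway, 60 in number, were grouped by role. A reciprocal region was found at 19 of them (31.7%), a reproducible K4–K119 peak at 32 and a reproducible K119–K4 peak at 21, beside the 20.9%, 33% and 30% of all genes given above. No test of the lists was made. Of 11 genes for ligand processing and reception, 3 had a region. Among them were CDON, a ligand co-receptor, and SCUBE2, which helps release the ligand. CDON had 152, 54, 143 and 60 reads in the 4 libraries and SCUBE2 had 154, 61, 135 and 29.

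Of 12 genes for the cilium and SMO regulation, 6 had a region. GRK2 and GRK3, kinases of receptors, held 216, 143, 265 and 108 reads and 257, 128, 145 and 53 reads in the 4 libraries. GPR161, a ciliary receptor that keeps the pathway off, held 223, 92, 188 and 55 reads, and ARRB1, an arrestin, held 135, 76, 110 and 30 reads. The other 2 were EVC and EVC2, which act beside SMO at the cilium base. The promoter of EVC2, with 111, 35, 41 and 4 reads, had no reproducible K119–K4 peak of its own and was counted because the merged region reaches it.

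Of 19 genes that regulate the GLI proteins, 8 had a region. DYRK2, a kinase, was highest with 368, 207, 573 and 242 reads, followed by CSNK1E with 173, 97, 181 and 74 reads, CUL3 with 137, 66, 199 and 86 reads and NUMB with 135, 78, 148 and 85 reads. CSNK1E is a casein kinase, CUL3 the scaffold of a ubiquitin ligase that degrades GLI proteins, and NUMB an adaptor for the ligase of GLI1. SUFU, which binds GLI proteins in the cytoplasm, was also among the 8, with PRKACA, GSK3B and FBXW11.

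Of 18 target genes, 2 had a region, CCND1 with 527, 289, 625 and 292 reads and JAG2 with 362, 134, 436 and 100 reads. CCND1 encodes cyclin D1 and JAG2 a Notch ligand, and each has other inputs than GLI proteins. Another 6 target genes had a reproducible K4–K119 peak and no region, which made 8 of 18 for that order and 4 of 18 for K119–K4. Of the 8 lung epithelial markers, none had a region, 1 (SFTPC) had a reproducible K4–K119 peak and 2 (NKX2-1 and SFTPC) had a reproducible K119–K4 peak. NKX2-1, the lung lineage factor, had 1518, 959, 1266 and 768 reads in the 4 libraries without one. SFTPC had 177, 46, 166 and no listed reads, so K119–K4 replicate 2 had no listed peak at its promoter. SFTPC was counted for K119–K4 because the merged region reaches that promoter. The other 6 markers had at most 57 reads over the 4 libraries. Peaks of this kind do not measure expression, so the labelled cell type was not checked by them.

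**Figure D4:**
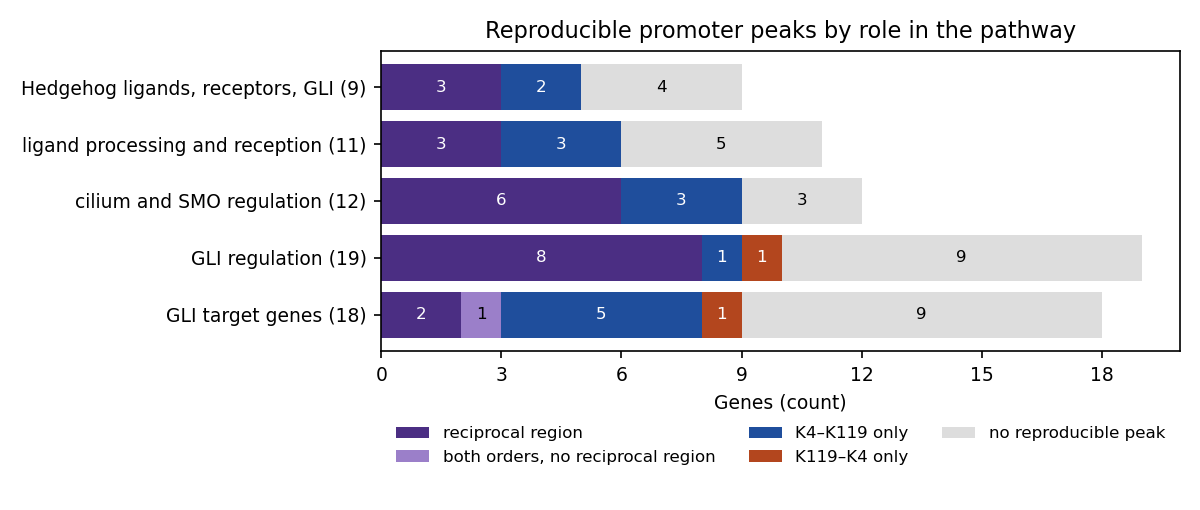
Number of genes (horizontal axis) by role in the pathway, divided by whether a promoter had a reciprocal region, reproducible peaks of both orders without one, of 1 order only, or none. The 9 Hedgehog, receptor and GLI genes have 3 with a region, 2 with K4–K119 only and 4 with none, and the GLI targets have 2 of 18 with a region.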

How the data were processed

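Peak lists of 6 reChIP-seq libraries were used. Per the labels and the study's methods, the authors aligned trimmed reads to hg38 (Trim Galore 0.6.6, BWA 0.7.13, SAMtools 1.9, Picard 2.6.0) and used EPIC2 with 100 bp bins on each replicate against input. The deposited ChIP and input counts per peak are whole, unscaled reads. The deposited p-value and FDR come from the authors' caller, the deposited log2 fold compares reads with scaled input, and the deposited score derives from it. Depth is not given, since the lists hold no reads outside peaks. The scale of the input differed between libraries, from 0.328 to 4.74 reads per input read, and its relation to depth was not tested. Kept peaks numbered 104200 to 189491 in reChIP and 28672 and 31740 in IgG–IgG, with 749681 to 1977663 and 58980 and 65433 reads.

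Replicates are separate samples by title. Peaks with log2 fold above 1 and FDR below 0.05 were overlapped as the study's methods describe, which do not name the peak that the 25% refers to. The study also excluded regions of the ENCODE blacklist, a step not applied here, so the 4020 reciprocal regions found are not the same set as in the study. Order was tested with edgeR 4.0.16 (DESeq2 1.42.0 as an alternative) on reads summed over promoter peaks. Scripts were tested on simulated data. Python 3.11.15, pandas 2.3.3 and pysam 0.24.0 were used. Members, lists and tests were chosen with earlier results of these data known. Besides the 9 members, the text names up to 4 pathway genes with a region and the most reads per role, the 3 genes nearest to each of the 2 members with the most reads, and genes with a start under a member peak. Other genes were named after their values were seen. The values of 1 pathway gene are not reported here. The smallest two-sided exact permutation p for 4 libraries against 2 is 0.133, so reChIP and IgG–IgG were not tested.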

Additional observations from a re-analysis of the deposited data

Results flagged for a closer look

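Peaks of at least 10 reads within the genes but away from every start lay outside the comparisons above, and the IgG–IgG libraries had none of that size there. All were in K4–K119. In PTCH1, K4–K119 replicate 1 had 38 reads and replicate 2 had 21 reads from 95511001, between the 2 promoter domains. In GLI2, intron 1 had 102 reads from 120740601 to 120742500 in K4–K119 replicate 1 and 44 reads from 120741101 to 120742300 in replicate 2, where the promoter had no listed peak, and replicate 1 had another peak of 12 reads from 120738901. The replicate 2 peaks had log2 folds of 0.83 in PTCH1 and 0.67 in GLI2, below the minimum of 1, so neither was a reproducible peak. In K4–K119 replicate 1 alone, SHH had 195 reads from 155802401 to 155805800, with part of exon 3, and DHH had 69 reads from 49089701 to 49090700, overlapping exon 3, and 42 reads from 49091801 to 49093100, in intron 1. The input scale of K4–K119 replicate 1 was 0.328 reads per input read, and its part in these peaks was not tested.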

How the results depend on the processing

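Over the alternatives, PTCH1 had a reciprocal region in each of 20, SMO and GLI3 in all but the 1 named for each above, SHH, DHH, HHIP and GLI2 in none, IHH in 1 and GLI1 in 2. With a log2 fold above 2, 2 members had a reproducible K4–K119 peak and 8 other pathway genes a region, against 32 of the latter with no filter on the fold. Of all genes, 6.27% and 30.2% had a region under these 2 rules. Leaving out a library in turn gave 3 to 5 members with a region, 5 to 8 with a K4–K119 peak, 3 to 8 with a K119–K4 peak, 0 to 1 with an IgG–IgG peak and 18 to 24 other pathway genes with a region. Of all genes, 20.9% to 27.2% then had a region. The shares of all genes with a peak of 1 order were not counted under these settings, so those member counts have no background. Without K119–K4 replicate 2 and without K4–K119 replicate 2, the peaks of 1 library stand for the order, and 8 members had a peak of it. In the library that stands, 9412 and 14137 of 20015 genes had a listed promoter peak of at least 10 reads. Without K119–K4 replicate 1, 5 had a K119–K4 peak.

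The order test called 493 genes with DESeq2 (190 higher in K4–K119, 303 lower), 235 with reads per kb of peak (8 higher, 227 lower, with a median of -0.39 over all genes against 0.05 as tested above) and 0 to 305 with a library left out, the last without K119–K4 replicate 1 (303 higher, 2 lower). With a library left out, the log2 difference of HHIP ranged from -1.36 (without K4–K119 replicate 1) to 2.10 and that of GLI3 from -0.37 to 0.023 (without K119–K4 replicate 2), so both changed sign. PTCH1 ranged from -0.55 to -0.20 and SMO from -0.56 to -0.17 (the smaller sizes without K4–K119 replicate 1), and GLI1 ranged from 0.18 (reads per kb) to 1.30 (peaks with log2 fold above 1) over all alternatives. With a replicate block, 0 genes were called (edgeR). The replicate numbers did not pair the samples (correlation 0.0098 of their deviations), and 1267 genes had an unadjusted p below 0.05 with the block. Depth outside peaks is unknown, so an absent peak is no measure of absent signal.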
